A study of Mus musculus with 2 samples.

Results

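The tumour necrosis factor (TNF) superfamily pairs ligands, most of them trimeric proteins held on the cell surface, with receptors that carry cysteine-rich repeats outside the cell. All genes were taken whose name on the array begins with Tnfsf or Tnfrsf and a digit, together with Tnf, Lta, Ltb, Ltbr, Fas, Fasl, Cd27, Cd70, Cd40 and Cd40lg. The rule took 41 of 37074 gene names, with 68 of 56605 probes. They comprised 16 ligands, 24 receptors and Tnfsf13os, a long noncoding RNA of the Tnfsf13 locus that the rule takes by its name only. Tnfsf13 itself has no probe under that name and was not analysed here.

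The samples were total RNA from cochleae of female C57BL/6 mice aged 7 weeks, hybridised with Cy3 label to Agilent 60-base oligonucleotide arrays. In the noise group, intense sound lasted 2 hours and cochleae were taken 3 hours later. The baseline sample came from mice of the same strain, sex and age without noise exposure. The labels give neither the sound level nor the number of mice pooled in a sample, and there was 1 array per group, so nothing below was tested across animals. A 2-fold difference (1 in log2) was used as a size rule.

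Receptors of the family fall into those with a cytoplasmic death domain, which can recruit caspase-8 through adaptor proteins, and those that bind TRAF adaptors and lead to NF-kappaB and MAP kinase signalling. A few receptors are decoys that bind a ligand without signalling. TNF signalling is among the early inflammatory pathways studied after acoustic trauma. RANK ligand drives the formation of bone-resorbing osteoclasts, and its decoy osteoprotegerin is known for restraining bone turnover in the otic capsule.

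A single family receptor and a single ligand passed the size rule, and they do not bind each other. Tnfrsf12a, which encodes Fn14, the receptor of the cytokine TWEAK and an injury-induced gene in many tissues, was 5.39-fold higher after noise. Tnfsf14, which encodes LIGHT, a ligand made mainly by activated T cells and other leukocytes, was 2.76-fold higher. Of 35 members measured on both arrays these 2 were at least 2-fold higher, against 0.611% of all 26528 measured genes. No member was at least 2-fold lower, against 1.25% of all genes. In order of log2 ratio, Tnfrsf12a stood at rank 4 and Tnfsf14 at rank 35 of all measured genes.

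The signal of the only Tnfrsf12a probe was 1320 after noise and 216 at baseline. The noise array was the brighter of the pair, with a 75th percentile of 316 against 278, and all ratios were taken after each array had been scaled to its 75th percentile. The scaled log2 level of Tnfrsf12a was 2.06 after noise and -0.37 at baseline, a difference of 2.43 with an error of 0.20 as estimated by the scanner software, which covers spot and scan error only. For comparison, the central 95% of the 9870 probes with a signal from 200 to 1000 (geometric mean of both arrays) lay between -0.61 and 0.56. The probe lies on chromosome 17 from 23812746 to 23812805 on the minus strand (mm9, per the file headers).

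The single Tnfsf14 probe gave signals of 146 (noise) and 46.5 (baseline), scaled log2 levels of -1.12 and -2.58, and a difference of 1.46 with a software error of 0.21. Of the 10243 probes with signals from 50 to 200, the central 95% lay between -0.73 and 0.63. The probe lies on chromosome 17 from 57329192 to 57329251 on the minus strand (mm9). With the normexp background correction in place of the scanner software's detrending, the ratio was 0.76, so the 2-fold call for Tnfsf14 was lost. Tnfrsf12a was at 2.21 with it. The normexp setting also adds an offset of 50 to every signal before the log. Such an offset by itself shrinks the ratios of dim probes. Neither gene had a further probe on the array, so neither value could be compared with an independent oligonucleotide.

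**Figure D1:**
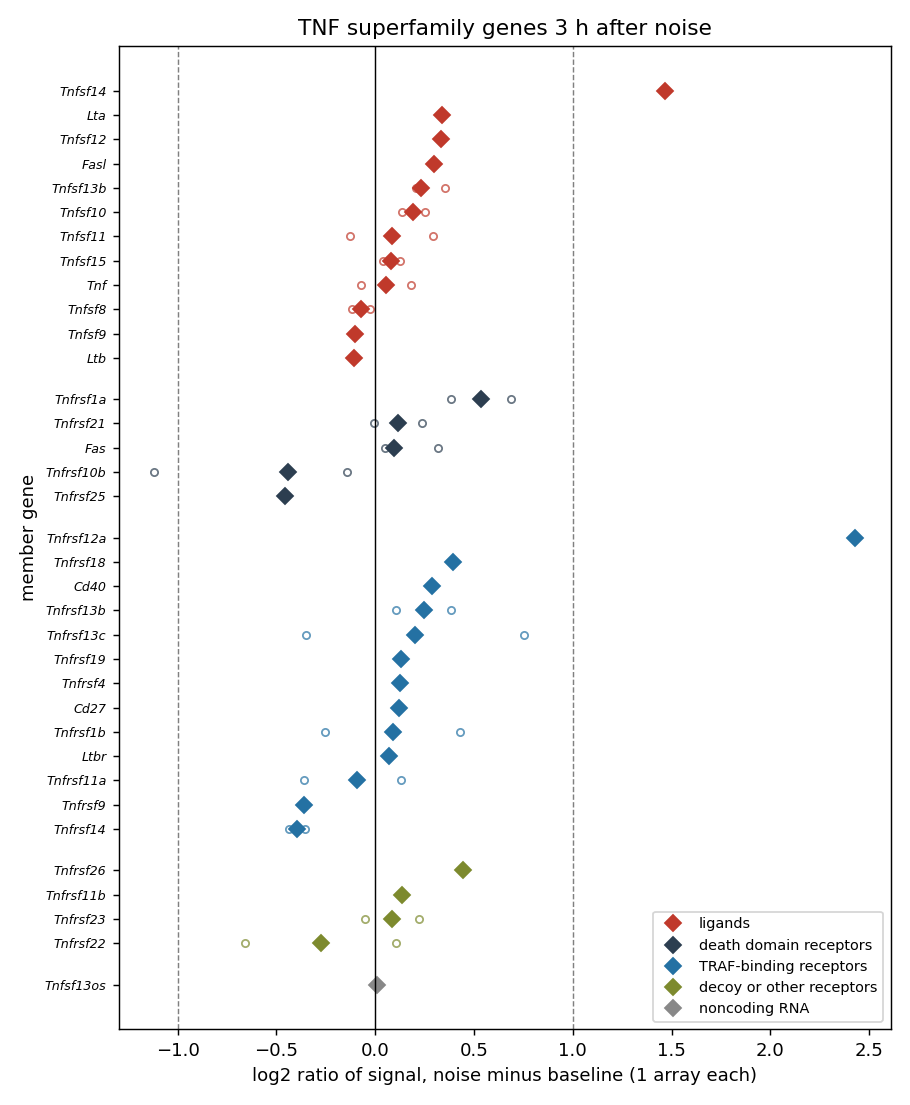
Log2 ratio (x axis, noise minus baseline, 1 array each) of the 35 members measured on both arrays (y axis), grouped by role. Diamonds are genes, open circles their single probes, and dashed lines mark 2-fold; Tnfrsf12a (2.43) and Tnfsf14 (1.46) alone lie past the upper line, and no gene lies past the lower one.

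The sequences upstream of these 2 genes are shown because they are the members past the size rule. Each is the 250 bases before the RefSeq transcript start on the gene's strand, 5′ to 3′ (GRCm38.p6, both on the minus strand: Tnfrsf12a at chr17:23677450-23677699, Tnfsf14 at chr17:57194182-57194431). Capitals mark matches to the motifs searched.
Tnfrsf12a: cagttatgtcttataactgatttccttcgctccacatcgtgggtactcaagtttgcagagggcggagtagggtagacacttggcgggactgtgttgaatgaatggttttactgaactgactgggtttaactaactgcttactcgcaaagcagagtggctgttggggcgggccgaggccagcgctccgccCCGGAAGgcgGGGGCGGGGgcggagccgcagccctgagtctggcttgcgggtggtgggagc
Tnfsf14: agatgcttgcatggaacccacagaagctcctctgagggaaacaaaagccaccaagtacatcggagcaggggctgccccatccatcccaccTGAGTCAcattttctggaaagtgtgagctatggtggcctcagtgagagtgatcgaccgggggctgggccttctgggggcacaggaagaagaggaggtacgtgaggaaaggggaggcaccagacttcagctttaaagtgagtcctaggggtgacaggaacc
Both strands were searched for an AP-1 motif (TGANTCA), the NF-kappaB motif, a cyclic AMP response element (TGACGTCA), an ETS motif (CCGGAAG) and a GC box (GGGGCGGGG). The Tnfrsf12a window held an ETS match 61 to 55 bases and a GC box 51 to 43 bases before the start, and the Tnfsf14 window held an AP-1 match 160 to 154 bases before it. No match overlapped another in these windows. Over 32851 RefSeq windows of the same length, 6.91% held the ETS motif, 10.4% the GC box and 6.75% the AP-1 motif. The NF-kappaB motif was in 0.356% and the response element in 1.55% of them, and neither was in either window.

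RefSeq windows were found for 30 of the 41 members, 34 windows in all. The AP-1 motif was in 5 of these (Fas, Tnfrsf8, Tnfrsf9, Tnfsf13b and Tnfsf14). The GC box was in 3 (Ltbr, Tnfrsf12a and Tnfrsf19), and so was the ETS motif (Tnfrsf12a, Tnfrsf1a and Tnfrsf1b). The NF-kappaB motif was in 1 (Ltb). A match is a description of the letters and not a binding site.

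The other 33 measured members lay between -0.46 and 0.53 in log2. Their median was 0.095, and that of all 35 was 0.12, where all measured genes had a median of -0.014. Of the 35, 26 were above 0 and 9 below, and 47.5% of all genes were above 0. This count moved with the scaling: with spike-in scaling 30 of 35 members and 78.4% of all genes were above 0, and with the normexp background 18 of 35 and 35.1%. The SD of log2 ratios among probes for the same gene was 0.27, from 9348 genes measured by more than 1 probe. Beyond that SD, 9 members were higher and 5 lower, against 13.2% and 17.4% of all genes. No member was at -0.5 or lower with the median over probes, where 6.81% of all genes were.

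**Figure D2:**
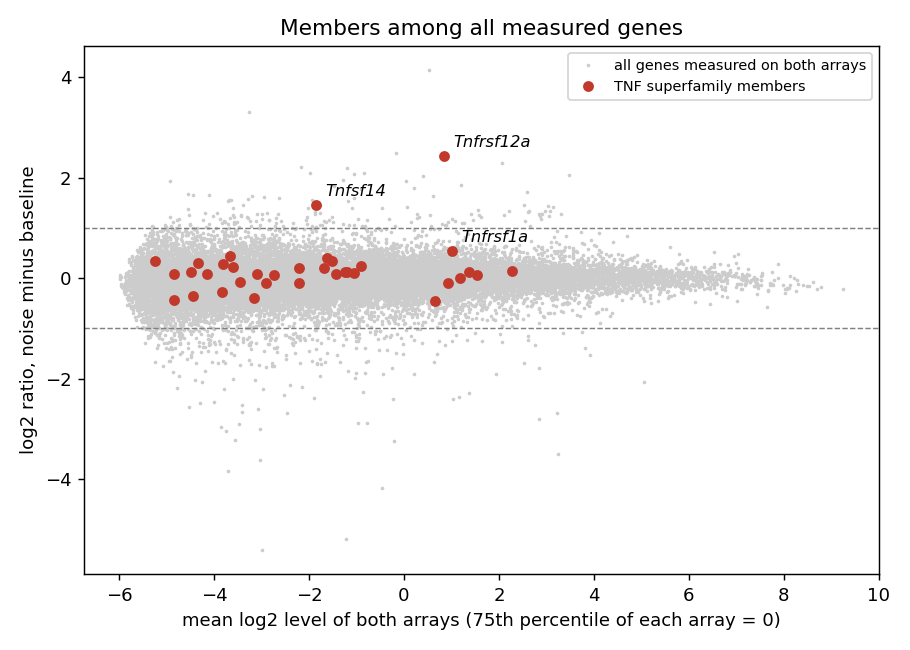
Log2 ratio (y axis, noise minus baseline) against the mean log2 level of both arrays (x axis, 75th percentile of each array at 0) for all 26528 genes measured on both arrays (grey) and the 35 members (red). Dashed lines mark 2-fold; most members lie inside the grey band, with Tnfrsf12a and Tnfsf14 above it.

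Among the ligands, 12 of 16 were measured on both arrays, 9 of them above 0, with a median of 0.14. Tnf, the founding member and an early inflammatory cytokine, had signals of 61.5 and 56.8 (noise and baseline) at one probe and 37.7 and 29.3 at the other, with log2 ratios of -0.07 and 0.18 and a gene value of 0.06. Its neighbours on chromosome 17 were also under 2-fold. Lta, which encodes lymphotoxin alpha, was at 0.34 with signals of 9.37 and 6.52, close to the lowest signals called above background. Ltb, the membrane subunit of the lymphotoxin heterotrimer, was at -0.11 with signals of 580 and 550. The probes of Ltb, Tnf and Lta span 7 kb of chromosome 17, from 35333097 to 35340334 (mm9).

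Tnfsf12, which encodes TWEAK, the ligand of the receptor with the largest ratio, had signals of 125 and 87.2 and a log2 ratio of 0.33, against 2.43 for Tnfrsf12a. Fasl, the death ligand of cytotoxic T cells, was at 0.30 with signals of 17.5 and 12.5. With the normexp background Fasl was at -0.06 and Lta at -0.13. The sign of these dim ligands thus depended on that setting, in which background correction and offset were not separated. All measured genes had a median of -0.063 with it. Tnfsf10, which encodes the death ligand TRAIL, was at 0.19, with probes at 0.13 and 0.25. Tnfsf13b, which encodes the B-cell survival factor BAFF, was at 0.23, with its 3 probes between 0.21 and 0.35. Tnfsf11, which encodes RANK ligand, the osteoclast differentiation factor, was at 0.08 from dim probes at -0.13 and 0.29. Tnfsf15, an endothelial and myeloid ligand, was at 0.08, the T-cell costimulatory ligand Tnfsf9 at -0.10, and Tnfsf8, the CD30 ligand, at -0.07. Tnfsf9 and Tnfsf14 lie near each other on chromosome 17 with Cd70 between them, within 82 kb from 57247062 to 57329251 (mm9), and differed in ratio (-0.10 and 1.46).

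Cd40lg, Cd70, Tnfsf4 and Tnfsf18, all ligands of activated lymphocytes or antigen-presenting cells, did not rise well above background on either array. The same held for the receptors Tnfrsf8 and Tnfrsf17, the plasma cell receptor BCMA. The Tnfrsf17 probe read 4.81 after noise and 1.03 at baseline, where the lowest signal called well above background was 4.58 after noise and 4.35 at baseline. No fold is given for these 6 genes.

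The 5 death domain receptors lay between -0.46 and 0.53. Tnfrsf1a, the widely expressed main TNF receptor, was the highest of them and the only other member with a log2 ratio of at least 0.5, a size reached by 4.52% of all genes. Its probes gave signals of 3130 and 2120 (log2 ratio 0.38) and of 186 and 102 (0.69), so both were higher after noise and under 2-fold. Fas, the receptor of Fasl, was at 0.09 (probes from 0.05 to 0.32). Of its 3 probes, 1 is placed on chromosome 4 by the file, while Fas lies on chromosome 19. Without that probe Fas was at 0.18. Tnfrsf21, which encodes DR6 and acts in neurons and lymphocytes, was at 0.12.

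The TRAIL receptor Tnfrsf10b and the Tnfsf15 receptor Tnfrsf25, which encodes DR3, were the lowest members, both at under 2-fold. Tnfrsf25 had signals of 425 and 514 and a log2 ratio of -0.46 from 1 probe. The 3 probes of Tnfrsf10b all lay below 0 and differed in size. The probe with signals of 142 and 138 gave -0.14, that with 9.43 and 11.3 gave -0.44, and that with 4.97 and 9.50 gave -1.12. The last of these is not annotated to a RefSeq transcript. The gene value of -0.44 was -0.14 with the brightest probe alone and -0.57 as the mean over probes. Over the 5597 probes with signals from 5 to 15, the central 95% lay between -1.02 and 0.78, a wider spread than at brighter signals.

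Of 15 TRAF-binding receptors, 13 were measured, 10 of them above 0, with a median of 0.12 that includes Tnfrsf12a. The receptors of Tnfsf14 did not show its size of difference. Tnfrsf14, which encodes the herpesvirus entry mediator HVEM, was at -0.40, with signals of 32.9 and 39.1 at one probe and 28.9 and 32.6 at the other. Ltbr, the lymphotoxin beta receptor of stromal cells, was at 0.07, with signals of 941 and 790. Tnfrsf1b, the TNF receptor of leukocytes and endothelium, was at 0.09 from probes that differed in direction (0.43 and -0.25). The probe at -0.25 is not annotated to a RefSeq transcript, and the probe at 0.43 is. Tnfrsf9, the receptor of Tnfsf9, was at -0.36 with signals of 12.7 and 14.4. Tnfrsf11a, which encodes RANK, was at -0.09, with its 3 probes between -0.36 and 0.13. The probe at -0.36 is likewise without a RefSeq annotation.

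Receptors of the B lineage gave low positive values. Tnfrsf13b, which encodes TACI, was at 0.25 from probes at 0.11 and 0.39. Another probe of it passed background after noise but not at baseline, at 7.22 against 3.81. Tnfrsf13c, which encodes the BAFF receptor, was at 0.20 from 2 probes that disagreed. The brighter, with signals of 442 and 231, gave 0.75, and the dimmer, with 12.1 and 13.6, gave -0.35. B cell markers were higher in the same sample: Cd79a, Cd79b, Ms4a1 and Pax5 were all measured and above 0, with a median of 0.57 and a range of 0.43 to 1.22. Their summed signal before scaling was 3140 after noise and 1820 at baseline. In bulk tissue, a different number of cells of a type and a different amount of RNA per cell cannot be told apart, and the part of B cells in these receptor values was not tested.

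The remaining TRAF-binding receptors (Cd27, Cd40, Tnfrsf4, Tnfrsf18 and Tnfrsf19) lay between 0.12 and 0.39. The first 4 are costimulatory receptors of lymphocytes and antigen-presenting cells whose ligands did not pass background on either array. Tnfrsf19, which encodes TROY, is a receptor of neural and epithelial progenitors. With the normexp background Cd40, at 0.29 as reported, was at -0.05, where the median of all genes was -0.063. Tnfrsf18, which encodes GITR of regulatory T cells, was the highest of them, with signals of 117 and 78.6. Tnfrsf19 had signals of 1590 and 1280 at its brighter probe, and its measured probes were both at 0.13. Another Tnfrsf19 probe, on the opposite strand to the gene, did not pass background on either array.

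The decoy osteoprotegerin, Tnfrsf11b, had signals of 1590 and 1280 and a log2 ratio of 0.14, so the 3 genes of the RANK ligand system (Tnfsf11, Tnfrsf11a and Tnfrsf11b) all lay within 0.14 of 0. Osteoblast markers had a median of 0.17 (4 of 5 above 0, from -0.13 to 0.61). Osteoclast markers had a median of -0.02 (2 of 5 above 0, from -0.19 to 1.15). The highest of these, Calcr, was past 2-fold with signals of 34.3 and 13.6 (noise and baseline). The receptors Tnfrsf22, Tnfrsf23 and Tnfrsf26, the first 2 of which bind TRAIL without signalling, lie within 72 kb on chromosome 7 (mm9). They were at -0.28, 0.09 and 0.44 from probes that in part were dim, and the Tnfrsf22 probes differed (0.11 and -0.66), so that its direction turned with the brighter probe alone. With the normexp background Tnfrsf26 was at 0.03. The noncoding RNA Tnfsf13os was at 0.01.

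Of 24 ligand-receptor pairs of the family, both partners were measured in 16, formed by 11 ligands and 13 receptors. In 10 of these pairs both partners lay above 0 and in 1 both below. The ligand was above and the receptor below 0 in 4, and the reverse held in 1. These counts follow from the signs of the members, of which 26 of 35 were above 0, against 47.5% of all genes. With the normexp background 18 of 35 members were above 0, so the pair counts depend on the processing. In no pair did both partners differ by 2-fold. This follows from the size rule, which only Tnfrsf12a and Tnfsf14 passed, and these do not form a pair. The receptor exceeded its ligand by 2.10 in log2 for Tnfrsf12a and Tnfsf12, and the same difference, receptor minus ligand, was -1.86 for Tnfrsf14 and Tnfsf14. The pairs share genes and are not independent, and the values describe 1 array per group.

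**Figure D3:**
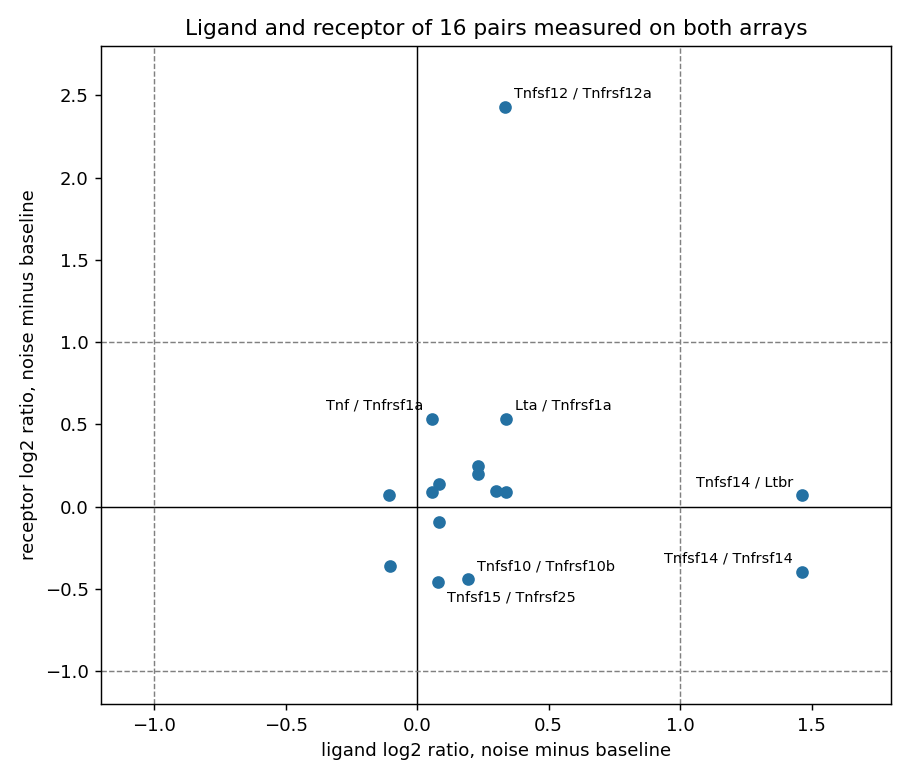
Receptor log2 ratio (y axis) against ligand log2 ratio (x axis), noise minus baseline, for the 16 pairs with both partners measured, 1 point per pair. Dashed lines mark 2-fold; Tnfrsf12a lies at 2.43 with its ligand at 0.33, and Tnfsf14 at 1.46 with its receptors at 0.07 and -0.40, and the upper right field past both lines is empty.

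Of 52 listed genes that act beside or below these receptors 51 were measured, and none was 2-fold higher or lower, where 0.611% and 1.25% of all genes were, so a count of 0 is near the background. There were 32 above 0 and 19 below, where 47.5% of all genes were above 0, with a median of 0.06, a lowest value of -0.51 and a highest of 0.57. The highest were Timp3 (0.57), an inhibitor of the TNF-shedding protease ADAM17, Rela (0.50), the main activating NF-kappaB subunit, and Tnfaip3 (0.41), which encodes the feedback inhibitor A20. Timp3 was higher at all 3 of its probes (0.54 to 0.71). The Rela probes were at 0.23 and 0.77. The lowest were Traf4 (-0.51), a TRAF adaptor, Ngfr (-0.47), a neurotrophin receptor of the same structural family, and Tab2 (-0.34), an adaptor of the kinase TAK1.

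The counts by step of the pathway are small and are to be read against the same 47.5% of all genes above 0, a share that moved with the scaling as given above. TRAF and other adaptors had a median of 0.01 (7 of 11 above 0), with Tradd, the adaptor of the TNF receptor, at 0.07. Ubiquitin ligases and their regulators had a median of -0.02 (2 of 9 above 0). Kinases and NF-kappaB subunits and inhibitors had a median of 0.14 (11 of 15 above 0), death execution genes 0.20 (5 of 6) and shedding enzymes with their regulators 0.17 (4 of 5). Ripk3 and Mlkl, which carry out necroptosis, were at 0.35 and 0.36, each from 1 probe. Map3k14, which encodes the kinase NIK of the noncanonical NF-kappaB route used by Tnfrsf12a and Ltbr, was at 0.01, and its substrate Nfkb2 was at 0.14. The values of Ripk3, Mlkl, Tradd, Map3k14 and Nfkb2 are given for their place in the pathway and were chosen after they had been seen.

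The hair cell genes Myo7a, Otof, Pou4f3, Tmc1 and Slc26a5 and all 5 supporting cell and 5 strial markers were well above background on both arrays. So were all 5 skeletal muscle and all 5 adipocyte markers, and 26528 of 37067 gene names. Passing background therefore does not identify the tissue. Slc26a5 was dim, with signals of 5.62 and 8.35. Markers of other cells moved between the samples as well. Skeletal muscle markers had a median of -1.04 (4 of 5 at least 2-fold lower) and adipocyte markers -1.64 (5 of 5), with summed signals of 1090 and 2000 for muscle and of 3370 and 11400 for adipocytes (noise and baseline). Tnfrsf12a and Tnfsf14 differed in the opposite direction to these lists. Fibroblast and endothelial markers, cells in which Tnfrsf12a is commonly found, had medians of 0.08 and 0.10 and stayed between -0.30 and 0.23. Hair cell markers had a median of 0.07 (from -0.75 to 0.67). Those of supporting cells had 0.23 (from -0.22 to 0.60), and those of strial cells 0.29 (from -0.65 to 0.89). Beside Tnfsf14, T and NK cell markers had a median of 0.22 (3 of 5 above 0, from -0.43 to 0.65), with summed signals of 1540 and 1190, and macrophage markers a median of -0.09 (2 of 5 above 0). Neutrophil markers had a median of 0.30 (4 of 5 above 0, from -0.15 to 0.82), with summed signals of 185000 and 170000. The part of these cells in the Tnfrsf12a and Tnfsf14 values was not tested.

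**Figure D4:**
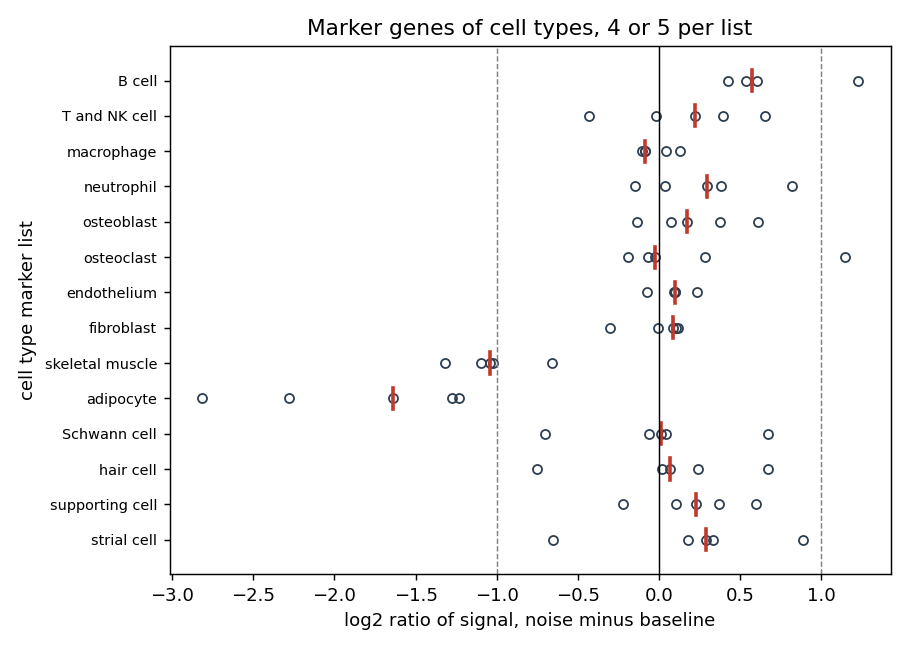
Log2 ratio (x axis, noise minus baseline) of 5 marker genes for each of 14 cell types, or 4 for B cells (y axis). Circles are genes, red bars list medians and dashed lines 2-fold; B cell markers all lie above 0, and muscle and adipocyte markers all below.

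Across 11 other ways of processing the same arrays, Tnfrsf12a stayed between 2.21 and 2.65 and Tnfrsf1a between 0.38 and 0.76. Tnfsf12 ranged from 0.16 to 0.56. Tnf changed sign with the normexp setting and with the choice of probe, between -0.07 and 0.28.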

How the data were processed

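Cy3-labelled cRNA of each sample was read on a 1-colour array, and both arrays lay on 1 slide and were read in 1 scan, per the file headers. The authors deposited scanner output of Agilent Feature Extraction 11.5.1.1 with an intensity per spot. Per the file headers, spatial and multiplicative detrending were on and separate background correction was off. A further table deposited by the authors gives log2 values that equal the log2 processed signal of the same array less a constant (8.30 for noise, 8.12 for baseline), with its 75th percentile at 0, a median of -2.81 (noise) and -2.79 (baseline) and no centring per gene.

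From the processed signal, spots flagged as outliers (77 and 58) were left out, which kept 56590 probes, and repeat spots were averaged as log2 values. Each array was then scaled by subtracting the 75th percentile of its non-control probes. The gene value was the median log2 ratio of the probes called well above background on both arrays (41647 probes, 26528 genes). No spot was saturated. With 1 array per group no test was made. The number of arrays limits the precision, and repeat spots of 300 probes, nearly all bright, gave a log2 ratio SD of 0.071. Gene names come from the array design and may be outdated. RefSeq accessions (GRCm38.p6) matched at least 1 probe of 40 of the 41 members, and some further probes of these members had no match. Named in full were members with an absolute log2 ratio of at least 0.5, members of pairs with both partners measured, members above background on 1 array only (there were 0), and the 3 highest and 3 lowest pathway genes; naming of other members followed a look at their values. The members and lists were chosen with earlier results of these data known. Of the cell type markers, 1 is not reported here. The gene step was run on simulated data with planted changes that all exceeded that of Tnfsf14 and a spread near that of the repeat spots. This does not bear on smaller differences, that of Tnfsf14 among them, or on dim probes. Alternatives used limma 3.58.1 (normexp, offset 50), statsmodels 0.14.6 (loess) and Python 3.11.15.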

Additional observations from a re-analysis of the deposited data

How the results depend on the processing

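The count of members at least 2-fold higher was 2, or 3 with no filter on dim probes, which adds the dim Tnfrsf17, in all of the alternatives but 1. With the normexp background it was 1, Tnfsf14 being under 2-fold. Of all genes, 0.611% were at least 2-fold higher as reported, 0.211% with the normexp background, 1.32% with spike-in scaling and 1.81% with no filter. The count of members at least 2-fold lower was 0 under every alternative run. The share of all genes that were lower ran from 0.279% (normexp background) to 3.5% (no filter). The members' median log2 ratio was 0.012 with the normexp background, where the median of all genes was -0.063. With spike-in scaling the members' median was 0.34 and the pathway median 0.29. This scaling placed the median of all genes at 0.21. The 8 spike-in probes set that offset. Of all genes past 2-fold, 32.8% were higher as reported, 43.1% with the normexp background and 65.4% with spike-in scaling. Of the values of the 35 measured members under the alternatives that kept them, 401 moved by no more than the SD between probes of a gene and 12 by more. The latter were Cd40, Fasl, Lta, Tnfrsf26 and Tnfsf14 with the normexp background, Tnfrsf10b, Tnfrsf13c, Tnfrsf1b and Tnfrsf22 with the brightest probe, and Tnfrsf10b, Tnfrsf13c and Tnfrsf22 with a signal of at least 25 on both arrays. The cause was not tested, and the offset of 50 in the normexp setting was not separated from its background correction. Leaving out the Fas probe on chromosome 4 and leaving out Tnfsf13os were chosen after the data were seen and moved the members' median by under 0.01. No paired analysis was possible because there was 1 array per group, which also left no replicate to omit. Ratios of all measured probes spread more widely at signals of 5 to 15 than at brighter ones, which limits the dim members.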

Other observations

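Genes with names beginning in Tnfaip are not members of the family and were looked at by name. The names stand for induction by TNF in cultured cells or, for the Tnfaip8l genes, for likeness to Tnfaip8. Of 8 array names beginning with Tnfaip, 7 were measured on both arrays, and all were under 2-fold. Tnfaip3 was the highest at 0.41, followed by Tnfaip8l2, an inhibitor of immune receptor signalling, at 0.40 with signals of 240 and 161 (noise and baseline). Tnfaip6, a hyaluronan-binding protein of inflamed tissue, was at 0.03 with signals of 169 and 146, and Tnfaip2 at -0.09. The array also carries a probe named Tnfsfm13, which the name rule does not take, with signals of 1950 and 1800 and a log2 ratio of -0.07.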
